A study of Saccharomyces cerevisiae with 27 samples.

Results

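Genes named for meiosis and sporulation were followed in Saccharomyces cerevisiae that was growing in rich medium. They were chosen by name: every gene whose standard symbol is SPO, SPS, REC, HOP, MEI, ZIP, IME, SSP, DIT, MND or MEK with a number, without REC104, together with NDT80, SMK1 and MAM1. RefSeq lists 49 such symbols, and 28 of them have a value among the 5297 genes with RNA-seq values. The other 21, which include SPO11, SPO13, HOP1, MEK1, SMK1 and MAM1, are not analysed here. The rule itself uses names and no measured value.

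RNA-seq compared 4 strains with 2 libraries each. All 4 are anchor-away strains, in which rapamycin pulls a protein fused to the FRB domain out of the nucleus, and all received rapamycin for 3 h in YPD at 30 °C, so no library shows untreated cells. WT carries no FRB fusion of the proteins studied. The strain hst34 has HST4 deleted and HST3 fused to FRB, rrp6 has RRP6 fused to FRB, and hst34rrp6 combines all of these changes. Hst3 and Hst4 are sirtuins that remove acetyl groups from histone H3, and Rrp6 is an exonuclease of the nuclear RNA exosome. The labels do not say whether the 2 libraries of a strain came from separate cultures, and the p-values cover the spread between libraries, which may be technical.

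Meiosis in budding yeast starts when an a/alpha diploid runs out of nitrogen and of a fermentable carbon source. Ime1 then switches on the early genes of recombination and synapsis, the kinase Ime2 carries the program on, and Ndt80 switches on the middle genes for the divisions and for spore formation. In growing cells Ume6 with the histone deacetylase Rpd3 keeps the early genes off, and Sum1 with the sirtuin Hst1 keeps many middle genes off. In fission yeast the nuclear exosome also destroys meiotic transcripts that escape repression during growth.

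The libraries held 5487526 to 10183415 reads in genes. HST4 signal was 91.5 to 100.3 in the 4 libraries of WT and rrp6, and 0 to 9.69 in the 4 libraries with HST4 deleted, as labelled. RRP6 signal was 666 and 741 in WT and 347 to 423 over the 4 libraries with RRP6-FRB. With RRP6 also untagged, hst34 1 had a signal of 674.4, but hst34 2 had 429.8, just above the highest RRP6-FRB library. RRP6 RNA therefore did not clearly separate tagged from untagged libraries. Anchoring removes the protein from the nucleus, so the RNA does not check the depletion. The a-cell markers summed to 24746 to 47212 per library, and the 2 measured of 4 alpha-cell markers to 160.4 to 257.3. Of these, SAG1 lay between 145.4 and 230.9 and was called in no strain against WT, and STE3 lay between 5.52 and 26.4 and rose by 0.36 in hst34rrp6 against WT (adjusted p = 0.00668). Of the 6 a-cell markers 5 were measured, and BAR1 was at 0 in hst34rrp6 1. Genes of nitrogen and carbon starvation, 8 of 8 measured, summed to 10250 and 11485 in the WT pair, 4862 and 3239 in the hst34 pair, 3654 and 3961 in the rrp6 pair and 3180 and 3703 in the hst34rrp6 pair. GAP1, MEP2, DAL5 and DAL80, which serve nitrogen uptake and its control, fell in each of the 3 strains against WT. JEN1, FBP1 and PCK1, of growth on other carbon sources, passed the test in none of the 3, and ICL1, of the glyoxylate cycle, rose by 0.63 in hst34rrp6 against WT (adjusted p = 0.0042). The part of these differences in the results for the meiosis genes was not tested. Centring each library on its median moved the median log2 fold change over all genes from 0.11 to −0.02 in hst34rrp6 against WT. It went from 0.17 to −0.06 in hst34rrp6 against hst34, and from −0.08 to 0.02 in hst34 against WT. The median signal over all genes was 360.6 in hst34 1 and 262.9 in hst34 2. The part of this gap in the hst34 values of single genes was not tested.

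Most of the meiosis and sporulation genes had little RNA. The signal, in reads per kb of gene interval scaled by an S. pombe spike-in, had a median of 52.5 over the 28 genes in WT, against 334 over all genes. In WT 25 of the 28 lay below the median of all genes, and 23 lay under the lower quartile of all genes, 161.6. The 3 above the median were SPO24 (6094), which encodes a small protein, SSP120 (735) and SPO12 (369), a regulator of exit from mitosis. SPO7, a subunit of a phosphatase of the nuclear membrane, and SPO14, phospholipase D, came next at 250.4 and 221.9. In bulk RNA, few cells with the transcript and less RNA per cell cannot be told apart. All 28 genes together held 0.0767 to 0.170% of the summed signal of a library. SPO24 made up much of this: the 28 genes summed to 8162 in WT 1 and to 2356 without SPO24, and to 4920 and 2552 in rrp6 1.

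**Figure D1:**
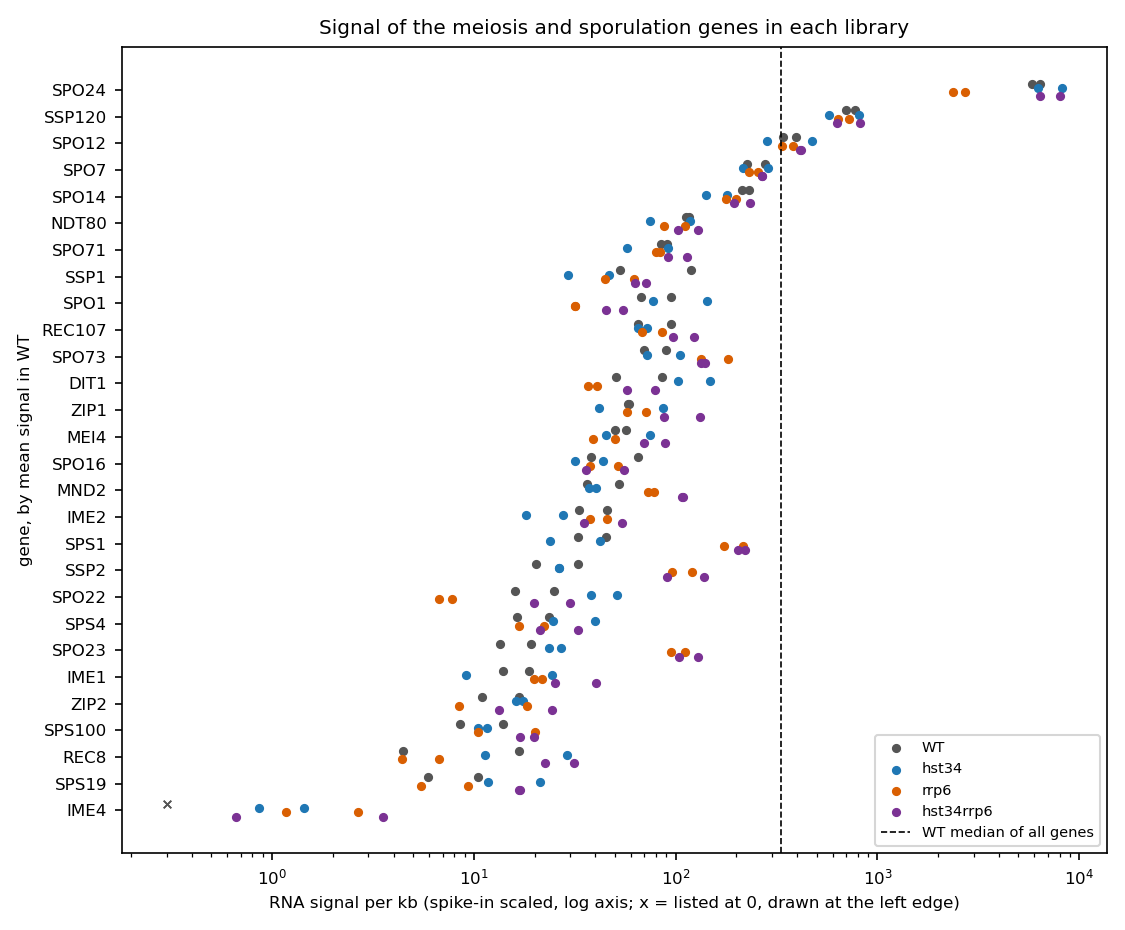
RNA signal per kb (spike-in scaled, log axis) of the 28 genes in each of 8 libraries; each point is 1 library, colours mark the strains, a cross marks a library at 0, and the dashed line is the WT median of all genes (334). All but SPO24, SSP120 and SPO12 have a WT mean left of the line, and the rrp6 points of SPS1, SPO23, SSP2 and SPO24 stand apart from the WT points.

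The deposited gene intervals do not always cover the open reading frame, so a signal can describe part of a transcript. The open reading frame lay wholly inside the interval for 15 of the 28 genes. Some intervals reached well beyond it, as for SPO73, with 1192 bp for 432 bp. SPO23 had 2296 for 1572 bp, and SPO24 568 for 204 bp. Reads in such flanks are part of the signal given for the gene. For SSP1 and NDT80 the interval held 31.2% and 40.1% of the open reading frame, at the 3′ end. Genes called below were also measured in part, each without the start of the frame. The share held was 51.6% for DIT1, 54.2% for SPO22, 63.7% for ZIP1, 63.8% for REC8 and 69.3% for SPO1. At least 10 reads were present in every library for 24 of the 28 genes, and the other 4 had fewer in at least 1 library. For 10 of the 28 the interval overlapped that of another gene, each time on the opposite strand; 35.3% of all genes had an overlap on either strand. The labels and headers do not say whether the counting used strand, and without strand a read in a shared stretch cannot be assigned to either gene.

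Differences between strains were tested with limma on log2(signal + 58.8) over 5294 genes in 1 fit, at an adjusted p of 0.05. Fold changes below are on that scale, which understates the change of genes as low as these, and each ± is a standard error that follows the level of the gene, not the scatter of its own 2 libraries. All 28 genes passed the filter on low values. In hst34 against WT 2 of 28 rose and 1 fell, or 7.14% and 3.57%, against 0.661% and 1.34% of all genes. With each library centred 3 rose and 0 fell, beside 398 of all 5294 genes called in either direction. In rrp6 against WT 4 rose and 2 fell, or 14.3% and 7.14%, against 4.53% and 6.63%. With each library centred 4 rose and 3 fell, beside 667 and 1096 of all genes. In hst34rrp6 against WT 7 rose, or 25% against 10.2%, and 0 fell, against 5.7%. With each library centred 6 rose and 1 fell, beside 803 and 1248 of all genes. Without centring, 1 gene was lower at an unadjusted p under 0.05 by limma. DESeq2 and edgeR with TMM each called 1 gene lower, and edgeR on the deposited scale 0.

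Between the strains with RRP6-FRB, hst34rrp6 against rrp6, 2 of 28 rose, or 7.14% against 1% of all genes. None of the 28 fell, against 0.0378%, with 0 lower at an unadjusted p under 0.05 and 0 by edgeR or DESeq2. Against hst34, 7 of 28 rose in hst34rrp6 and 3 fell, or 25% and 10.7%, against 13.5% and 3.38%. With each library centred 4 rose and 3 fell, beside 760 and 1308 of all genes. Neither centred share of the 28 was above that of all genes. For 2 of 28 genes, or 7.14% against 1.15%, the hst34 change was higher with RRP6-FRB than with untagged RRP6, in a test of the interaction. It was lower for 0, against 0.0378% of all genes, with 0 at an unadjusted p under 0.05 and 0 by edgeR or DESeq2. In all, 13 of the 28 genes passed the test in at least 1 comparison and 15 in none. The share of all genes that passed in at least 1 comparison was not counted. The 13 therefore cannot be read as a trait of these genes. With each library centred the same test calls more genes, 1763 in place of 591 in rrp6 against WT, so a share of members can be read only against the share of all genes in the same fit.

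The regulators were 5 of the 28, and SPS1 was the 1 that changed with Rrp6 depletion against WT. Of all genes 4.53% rose and 6.63% fell in rrp6 against WT. SPS1 (YDR523C, chromosome IV, 1485682 to 1487025) encodes a kinase needed to form spores. Its signal was 45.4 and 32.7 in the WT pair, 42.1 and 23.98 in the hst34 pair, 174.5 and 216.5 in the rrp6 pair and 204.2 and 221.8 in the hst34rrp6 pair. Every library with RRP6-FRB lay above every library without it, by 5.01-fold in the mean for rrp6 over WT. On the log2 scale SPS1 rose by 1.38 ± 0.16 in rrp6 against WT (adjusted p = 1.4e-14) and by 1.57 ± 0.16 in hst34rrp6 against hst34 (adjusted p = 7.17e-19), comparisons that share no library. AGE1, which lies 232 bp upstream on the same strand, was at 0.55 in rrp6 against WT (adjusted p = 0.0922) and rose by 0.66 in hst34rrp6 against WT (adjusted p = 0.0219).

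The genes that start and drive the program stayed low. IME1 signal was 18.7 and 13.9 in the WT pair, 24.4 and 9.14 in the hst34 pair, 19.8 and 21.8 in the rrp6 pair and 25.2 and 40.3 in the hst34rrp6 pair. The hst34rrp6 libraries lay above the other 6, and IME1 was at 0.28 ± 0.11 against WT (adjusted p = 0.0603), short of the threshold. IME2, the kinase that follows Ime1, had 33.1 and 45.7 in the WT pair, 27.7 and 18.1 in the hst34 pair, 37.7 and 45.8 in the rrp6 pair and 35.2 and 54.5 in the hst34rrp6 pair. Only the hst34 libraries stood apart, on the low side of the others. IME2 rose by 0.34 ± 0.12 in hst34rrp6 against hst34 (adjusted p = 0.0387), a call lost when any of WT 1, WT 2, hst34 2, rrp6 1, rrp6 2 or hst34rrp6 2 was left out (0.20 to 0.34, adjusted p = 0.0531 to 0.584) or when each library was centred. NDT80, the activator of the middle genes, had 112.2 and 116.6 in the WT pair, 117.3 and 74.6 in the hst34 pair, 88.0 and 110.8 in the rrp6 pair and 102.9 and 129.7 in the hst34rrp6 pair. The rrp6 libraries lay just below those of WT, and the other strains overlapped WT. No comparison of NDT80 passed the test (−0.18 to 0.32, the interaction included). These values describe the 3′ part of NDT80 that its interval covers.

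IME4, an RNA methyltransferase that acts in meiosis, was at 0 reads in both WT libraries, where 3 reads would be a signal of 1.52 and 2.68. The other 6 libraries held 1 to 4 reads, a signal of 0.661 to 3.56, so no difference was detectable at this depth. The IME4 interval lies wholly within that of YGL193C on the opposite strand, whose signal was 256.4 to 387.6. How reads from the shared stretch were assigned is not given.

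**Figure D2:**
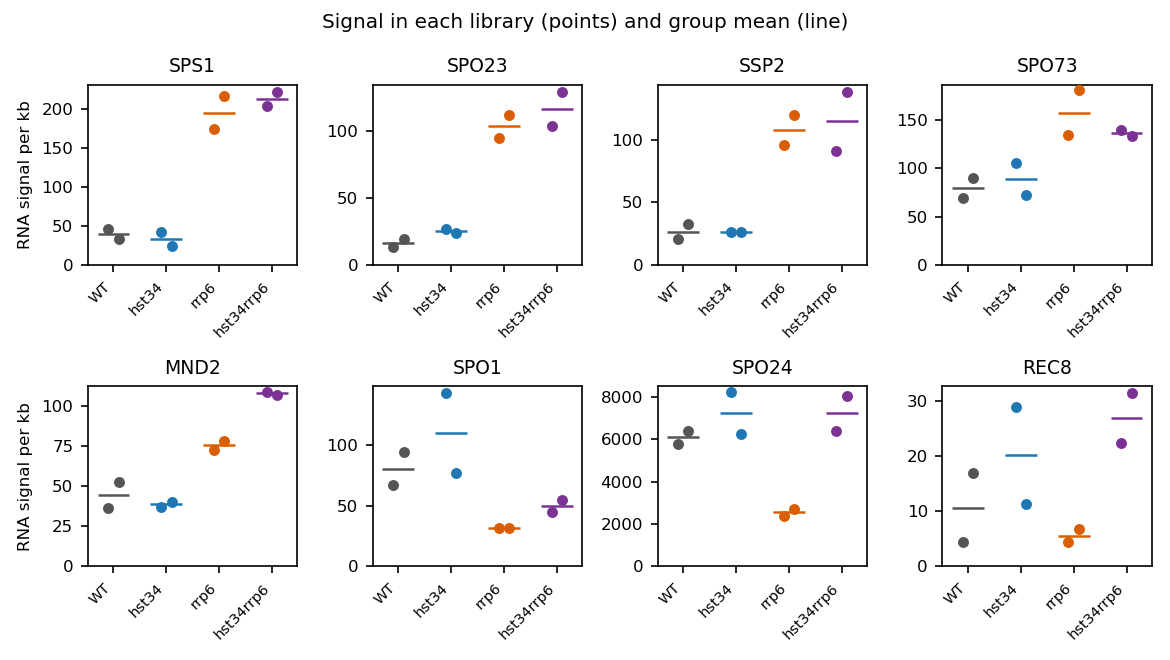
RNA signal per kb (linear axes from 0, spike-in scaled) of 8 genes in the 4 strains; points are libraries and lines are the means of 2. SPS1, SPO23, SSP2 and MND2 are higher in both strains with RRP6-FRB than in both without it, and SPO24 is low in rrp6 alone.

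In rrp6 against WT limma called 4.53% of all genes higher and 6.63% lower. Of the 2 genes for recombination and 5 for chromosome axis and synapsis, none passed that test, a count near those shares. SPO22 was the 1 at an unadjusted p under 0.05, at −0.26 ± 0.11 (adjusted p = 0.128), and edgeR on both scales and DESeq2 called it lower, by −1.43 to −1.40 without a pseudocount (adjusted p = 0.00784 to 0.0233). The genes for making meiotic breaks, REC107 and MEI4, passed in no comparison, with 0.29 ± 0.16 and 0.30 ± 0.14 in hst34rrp6 against WT. REC8, the meiotic cohesin subunit, had a signal of 4.46 and 16.8 in the WT pair, 28.9 and 11.4 in the hst34 pair, 4.399 and 6.72 in the rrp6 pair and 22.4 and 31.3 in the hst34rrp6 pair. Both hst34rrp6 libraries lay above those of rrp6 and WT, but all values rest on 6 to 32 reads. REC8 rose by 0.41 ± 0.10 in hst34rrp6 against rrp6 (adjusted p = 0.0124) and by 0.31 ± 0.10 against WT (adjusted p = 0.0256). Neither call held without rrp6 1, rrp6 2 or hst34rrp6 2, and the call against WT did not hold without WT 1; the values were then 0.34 to 0.44 against rrp6 and 0.18 to 0.31 against WT. With each library centred REC8 was at 0.30 and 0.18, and neither passed.

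ZIP1 encodes a structural protein of the synaptonemal complex. Its signal was 57.9 and 58.5 in the WT pair, 86.5 and 41.7 in the hst34 pair, 57.7 and 71.2 in the rrp6 pair and 87.3 and 132.1 in the hst34rrp6 pair. The hst34rrp6 libraries were the highest, with hst34 1 just under the lower of them. ZIP1 rose by 0.51 ± 0.15 against WT (adjusted p = 0.00641), a call lost without WT 1, WT 2 or hst34rrp6 2 (0.32 to 0.52). It rose by 0.47 ± 0.15 against hst34 (adjusted p = 0.0159), a call lost without hst34 2 or hst34rrp6 2 (0.20 to 0.27) and with each library centred. The 3′ end of its interval overlaps MGP12 by 68 bp.

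SPO22, also called ZIP4, helps to assemble the synaptonemal complex. Its signal was 15.9 and 24.97 in the WT pair, 51.5 and 38.1 in the hst34 pair, 7.84 and 6.73 in the rrp6 pair and 19.96 and 29.9 in the hst34rrp6 pair. The hst34 libraries were the highest and the rrp6 libraries the lowest of the 8, with no overlap. SPO22 rose by 0.39 ± 0.11 in hst34 against WT (adjusted p = 0.033) and fell by 0.31 on the log2 scale in hst34rrp6 against hst34 (adjusted p = 0.0395). The rise was lost without WT 1, WT 2, hst34 1, rrp6 1 or rrp6 2 (0.29 to 0.47), and the fall without any 1 library other than hst34 2 (−0.39 to −0.21).

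MND2, a subunit of the anaphase-promoting complex, was the 1 gene to change among the 2 with roles in the divisions, and is also used in growing cells. Its signal was 36.2 and 52.4 in the WT pair, 37.2 and 40.4 in the hst34 pair, 72.7 and 78.6 in the rrp6 pair and 109.0 and 107.1 in the hst34rrp6 pair. The 3 levels did not overlap: hst34rrp6 lay above rrp6, and rrp6 above WT and hst34. MND2 rose by 0.70 ± 0.14 in hst34rrp6 against WT (adjusted p = 3.11e-05) and by 0.77 ± 0.14 against hst34 (adjusted p = 3.04e-06), and was at 0.39 ± 0.14 in rrp6 against WT (adjusted p = 0.0602). YVH1, whose interval overlaps that of MND2 by 292 bp on the opposite strand, was at 0.20 in hst34rrp6 against WT (adjusted p = 0.594). INA22, 44 bp upstream of MND2 on the opposite strand, rose by 0.54 in the same comparison (adjusted p = 0.0343). Of the 7 genes with a known role in growing cells, MND2 was the 1 that passed the test in any comparison by limma; SPO7, SPO12, SPO14, SPS19, SSP120 and IME4 passed in none, although DESeq2 and edgeR with TMM called SPO14 lower in hst34 against WT (−0.39, adjusted p = 0.0161 and 0.0112).

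Among the 8 genes for the prospore membrane and the spore wall, SSP2 and SPO73 rose and SPO1 fell with Rrp6 depletion. Of all genes 4.53% rose and 6.63% fell in rrp6 against WT. SSP2 (YOR242C, chromosome XV, 788775 to 789902), which acts with the kinase Smk1 in building the spore wall, had a signal of 20.4 and 32.7 in the WT pair, 26.4 and 26.3 in the hst34 pair, 95.8 and 120.2 in the rrp6 pair and 91.1 and 138.3 in the hst34rrp6 pair. The libraries with RRP6-FRB lay above all others, at 4.07-fold the mean of WT in rrp6. SSP2 rose by 0.97 ± 0.14 in rrp6 against WT (adjusted p = 8.55e-10) and by 1.01 ± 0.14 in hst34rrp6 against hst34 (adjusted p = 1.32e-10). PUS7, whose interval ends where that of SSP2 begins on the same strand, was at 0.10 in rrp6 against WT (adjusted p = 0.87), and MET7, which overlaps it by 124 bp on the other strand, at 0.26 (adjusted p = 0.573).

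SPO73 (YER046W, chromosome V, 242498 to 243689) serves the prospore membrane. Its signal was 69.6 and 90.0 in the WT pair, 105.7 and 71.9 in the hst34 pair, 134.0 and 181.2 in the rrp6 pair and 139.7 and 133.9 in the hst34rrp6 pair. The libraries with RRP6-FRB were again the highest, by 1.98-fold in the mean for rrp6 over WT. SPO73 rose by 0.64 ± 0.17 in rrp6 against WT (adjusted p = 0.00314), a call lost without WT 1 or rrp6 2 (0.48 to 0.53). It rose by 0.50 ± 0.17 in hst34rrp6 against WT (adjusted p = 0.0267), a call lost without any 1 of the 6 libraries of WT, rrp6 or hst34rrp6 (0.39 to 0.61), and was at 0.42 ± 0.17 against hst34 (adjusted p = 0.076). ACA1, 740 bp upstream on the opposite strand, was at 0.38 in rrp6 against WT (adjusted p = 0.307). In hst34rrp6 against WT ACA1 rose by 0.75 (adjusted p = 0.00703), and SAP1 on the other side was at 0.15 (adjusted p = 0.6).

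SPO1 (YNL012W, chromosome XIV, 610293 to 611820), a phospholipase-like protein of spore formation, went the other way. Its signal was 67.4 and 94.3 in the WT pair, 143.6 and 77.1 in the hst34 pair, 31.6 and 31.9 in the rrp6 pair and 45.1 and 55.1 in the hst34rrp6 pair. All 4 libraries with RRP6-FRB lay below all 4 without it. SPO1 fell by 0.62 on the log2 scale in rrp6 against WT (standard error 0.14, adjusted p = 0.00037) and by 0.61 in hst34rrp6 against hst34 (standard error 0.14, adjusted p = 0.000528). The first call was lost without WT 2 (−0.48, adjusted p = 0.115) and the second without hst34 1 (−0.32, adjusted p = 0.0733). Against WT, SPO1 was at −0.35 ± 0.14 in hst34rrp6 (adjusted p = 0.0748) and fell by 0.48 with each library centred (adjusted p = 0.00692). Its neighbours HEF3 and YNL011C were at 0.08 and 0.29 in rrp6 against WT, neither past the test. In hst34rrp6 against WT both neighbours rose, by 0.71 and 0.56 (adjusted p = 3.7e-06 and 0.015). The interval of YNL011C overlaps that of SPO1 by 148 bp on the opposite strand.

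DIT1, of the dityrosine layer of the spore wall, and SSP1, of the leading edge of the prospore membrane, were called in hst34. DIT1 signal was 50.7 and 85.3 in the WT pair, 147.9 and 103.3 in the hst34 pair, 40.9 and 36.9 in the rrp6 pair and 57.5 and 79.4 in the hst34rrp6 pair, highest in the hst34 libraries and lowest in those of rrp6. DIT1 rose by 0.54 ± 0.15 in hst34 against WT (adjusted p = 0.0184) and fell by 0.53 on the log2 scale in hst34rrp6 against hst34 (adjusted p = 0.00481). The rise was lost without WT 1, hst34 1, rrp6 1 or rrp6 2 (0.35 to 0.54), and the fall without hst34 1 or hst34rrp6 1 (−0.41 to −0.35). SSP1 signal was 53.2 and 118.7 in the WT pair, 46.8 and 29.2 in the hst34 pair, 44.6 and 62.4 in the rrp6 pair and 71.0 and 63.0 in the hst34rrp6 pair. The WT libraries lay further apart than any other pair, with WT 2 the highest of the 8. SSP1 fell by 0.55 on the log2 scale in hst34 against WT (adjusted p = 0.00829), but was at −0.22 without WT 2 and −0.42 without hst34 2, short of the threshold, as it was with each library centred (−0.45, adjusted p = 0.113). It rose by 0.38 ± 0.14 in hst34rrp6 against hst34 (adjusted p = 0.0404), a call lost in 6 of 8 fits that left out 1 library (0.25 to 0.43). SPO14, SPO71 and SPS100, of the same group, passed in no comparison.

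SPO23 and SPO24 stand outside the role groups. SPO23 (YBR250W, chromosome II, 718329 to 720624) had a signal of 13.5 and 19.1 in the WT pair, 27.1 and 23.6 in the hst34 pair, 95.1 and 111.8 in the rrp6 pair and 103.7 and 129.1 in the hst34rrp6 pair. The libraries with RRP6-FRB lay above all others, and the ratio of the rrp6 mean to the WT mean, 6.34, was the highest among those with reads in WT. SPO23 rose by 1.11 ± 0.14 in rrp6 against WT (adjusted p = 2.21e-13) and by 1.05 ± 0.14 in hst34rrp6 against hst34 (adjusted p = 6.2e-12). Its neighbours ARO4 and MRPS5 were at −0.04 and 0.23 in rrp6 against WT, neither past the test.

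SPO24 (YPR036W-A, chromosome XVI, 645876 to 646443) had by far the most RNA of the 28 genes and was low in rrp6 alone. Its signal was 5806 and 6382 in the WT pair, 8235 and 6279 in the hst34 pair, 2368 and 2726 in the rrp6 pair and 6403 and 8053 in the hst34rrp6 pair. The rrp6 libraries lay far below the other 6. Those of hst34 overlapped those of WT, and those of hst34rrp6 lay above WT. SPO24 fell by 1.24 on the log2 scale in rrp6 against WT (standard error 0.21, adjusted p = 2.44e-07), to 0.418 of the WT mean. It rose by 1.48 ± 0.21 in hst34rrp6 against rrp6 (adjusted p = 5.38e-09), and was at 0.24 ± 0.21 in hst34 against WT (adjusted p = 0.921) and in hst34rrp6 against WT (adjusted p = 0.506). With each library centred it rose by 0.34 in hst34 against WT (adjusted p = 0.036). The interaction was 1.24 ± 0.30 (adjusted p = 0.005), a call lost without WT 2, rrp6 1, rrp6 2 or hst34rrp6 2 (1.08 to 1.34, adjusted p = 0.0582 to 0.544). VMA13 and ERV2 on either side were at −0.03 and 0.01 in rrp6 against WT.

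**Figure D3:**
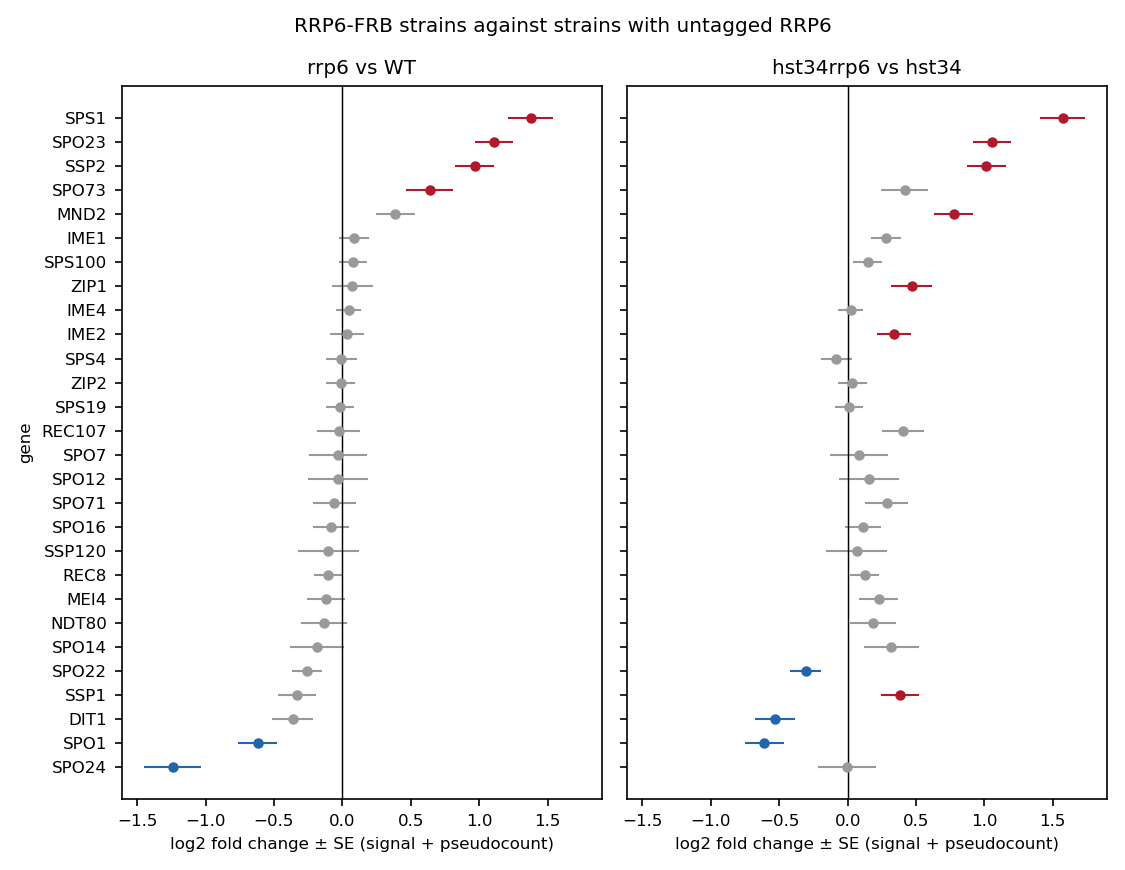
Log2 fold change ± SE, on log2(signal + 58.8), of the 28 genes in rrp6 against WT (left) and hst34rrp6 against hst34 (right), 2 libraries per strain; red points passed the test as higher, blue as lower, grey did not pass. SPS1, SPO23 and SSP2 lie near or above 1 in both panels, and SPO24 lies at −1.24 on the left and near 0 on the right.

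**Figure D4:**
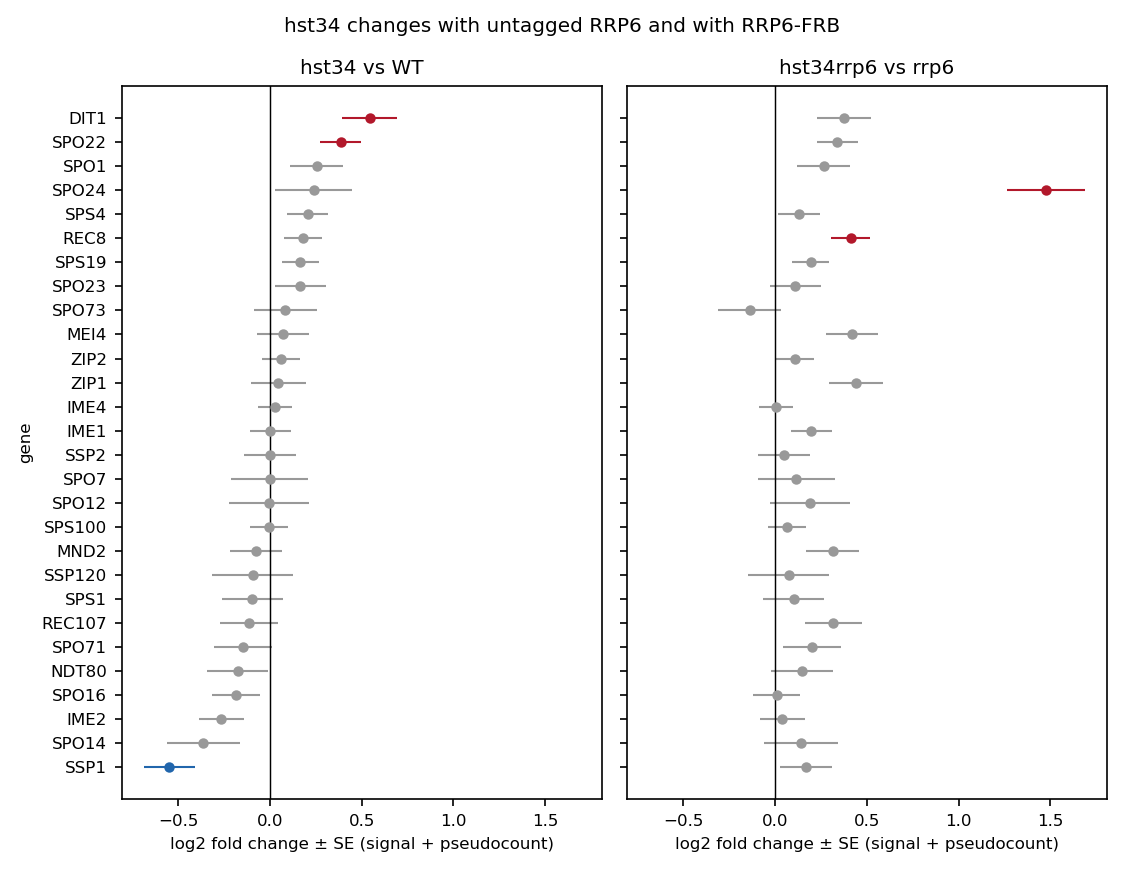
Log2 fold change ± SE, on log2(signal + 58.8), of the 28 genes in hst34 against WT (left) and hst34rrp6 against rrp6 (right), 2 libraries per strain; red points passed the test as higher, blue as lower, grey did not pass. DIT1, SPO22 and SSP1 pass on the left, and SPO24 (1.48) and REC8 (0.41) on the right.

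The median log2 fold change of the 28 was 0.00 in hst34 against WT, with −0.08 over all genes, and −0.03 in rrp6 against WT, with 0.00 over all genes. It was 0.14 in hst34rrp6 against WT, with 0.11 over all genes, and 0.16 in hst34rrp6 against rrp6, with 0.10 over all genes. It was 0.17 over both in hst34rrp6 against hst34. The count of genes above 0 differed more: 27 of 28 in hst34rrp6 against rrp6, with 73.6% of all genes, and 23 of 28 in hst34rrp6 against WT, with 62.2%. These counts depend on the scaling. With each library centred the medians of the 28 were 0.05 and 0.01 in these comparisons, with −0.01 and −0.02 over all genes. In rrp6 against WT 10 of 28 were above 0, with 49.8% of all genes. The 15 genes called in no comparison lay between −0.18 and 0.08 in rrp6 against WT, and between −0.07 and 0.30 in hst34rrp6 against WT.

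Other genes of the same pathways, 57 measured of 71 listed, were counted for comparison. In rrp6 against WT 7 of 57 rose and 0 fell, by limma, beside 4.53% and 6.63% of all genes. In hst34rrp6 against WT 16 rose and 0 fell, beside 10.2% and 5.7%, and against hst34 13 rose and 0 fell, beside 13.5% and 3.38%. Centring each library turned these into 7 and 6, 15 and 4, and 10 and 7, so the count of falls depends on the scaling. Over all 5294 genes the centred fits called 667 higher and 1096 lower, 803 and 1248, and 760 and 1308. edgeR on the deposited scale called 0 lower in each of the 3, edgeR with TMM 7, 3 and 5, and DESeq2 6, 3 and 4. Of all genes TMM called 1041, 1153 and 1117 lower, and DESeq2 932, 1081 and 1021. At an unadjusted p under 0.05 limma had 5, 2 and 1 lower. The genes that fell with centring in hst34rrp6 against WT were MCK1, RME1, RRT8 and SSN3. In hst34 against WT 3 rose and 0 fell, beside 0.661% and 1.34% of all genes, and in hst34rrp6 against rrp6 4 rose and 0 fell, beside 1% and 0.0378%. In both, 0 were lower at an unadjusted p under 0.05 or by edgeR or DESeq2. The rises in hst34rrp6 against rrp6 were 0 with centring, without rrp6 1 or without hst34rrp6 2, 1 without rrp6 2 and 2 without hst34rrp6 1. Those in hst34 against WT were 1 without WT 1 or WT 2, 5 without hst34 2 and 8 by edgeR with TMM. Those in rrp6 against WT were 4 without rrp6 2, with 5 falls without hst34 1 or hst34 2, and those in hst34rrp6 against hst34 were 22 without hst34 1 and 7 without hst34 2 or hst34rrp6 2.

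In rrp6 and in hst34rrp6 against WT 4.53% and 10.2% of all genes rose. Of 10 other genes for recombination and synapsis, MSH5, DMC1, HED1 and CSM4 rose in both comparisons. With each library centred MSH5 alone of these held in rrp6, and CSM4 did not hold in hst34rrp6. In rrp6 the calls of DMC1 and HED1 were also lost without WT 1, WT 2 or rrp6 2, and that of CSM4 without rrp6 1. MSH5, a MutS protein of crossover formation, had a signal of 33.8 and 41.3 in the WT pair, 63.0 and 41.0 in the hst34 pair, 86.5 and 105.9 in the rrp6 pair and 108.3 and 126.5 in the hst34rrp6 pair. The RRP6-FRB libraries lay above all others, and MSH5 rose by 0.68 ± 0.15 in rrp6 against WT (adjusted p = 0.000114). HED1 had 3.62 and 3.18 in the WT pair, 25.6 and 6.13 in the hst34 pair, 14.6 and 28.6 in the rrp6 pair and 40.0 and 72.9 in the hst34rrp6 pair, from 1 to 23 reads. The hst34rrp6 libraries were the highest, and HED1 rose by 0.88 ± 0.11 against WT (adjusted p = 3.87e-13). DMC1, the meiotic strand-exchange protein, rose by 0.58 ± 0.11 in hst34rrp6 against WT (adjusted p = 6.06e-06) and CSM4 by 0.42 ± 0.10 (adjusted p = 0.000466). Both rest on few reads. DMC1 had 7 and 3 reads in the WT pair and 22 and 15 in the hst34rrp6 pair. CSM4 had 1 in each WT library and 25 and 24 in the hst34rrp6 pair. CSM4 shares 904 of its 1792 bp with YPL199C on the opposite strand. If the counting did not use strand, its reads in that stretch cannot be told apart from those of that gene.

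Of 17 other genes for spore formation, GAS2, DON1 and SMA2 rose in rrp6 against WT, beside 4.53% of all genes. In hst34rrp6 against WT 9 of the 17 rose, beside 10.2% of all genes. GAS2, a glucan enzyme of the spore wall, had a signal of 97.4 and 91.3 in the WT pair, 100.8 and 46.8 in the hst34 pair, 197.6 and 223.3 in the rrp6 pair and 261.2 and 301.4 in the hst34rrp6 pair. SMA2, of the prospore membrane, had 9.92 and 10.5 in the WT pair, 8.42 and 11.8 in the hst34 pair, 68.4 and 73.2 in the rrp6 pair and 56.8 and 104.4 in the hst34rrp6 pair. In both genes the RRP6-FRB libraries lay well above the rest, though SMA2 rests on 3 to 30 reads per library. GAS2 rose by 0.81 ± 0.19 in rrp6 against WT (adjusted p = 0.000295) and SMA2 by 0.91 ± 0.12 (adjusted p = 2.47e-11); the GAS2 call was lost without rrp6 2. MIP6, an RNA-binding protein, and SGA1, the sporulation glucoamylase, rose in hst34 against WT, by 0.79 ± 0.13 (adjusted p = 1.13e-07) and 0.38 ± 0.12 (adjusted p = 0.0427), and MIP6 signal was 13.98 and 23.1 in WT against 110.6 and 46.7 in hst34. The SGA1 call was lost with centring and without WT 1, WT 2, hst34 1, rrp6 1 or rrp6 2, whereas that of MIP6 held in each of these fits.

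In hst34rrp6 against WT 1 of 13 repressors and 2 of 12 activators of entry rose, beside 10.2% of all genes. Of the 13 repressors, HOS2, a histone deacetylase of the Set3 complex, rose by 0.84 ± 0.22 in hst34rrp6 against WT (adjusted p = 0.00155), a call lost without hst34rrp6 2. UME6, SUM1 and HST1 passed in no comparison of strains in the fit of all 8 libraries. UME6 was called in hst34rrp6 against WT without hst34 1, without hst34 2, with the compared groups alone, by edgeR with TMM and by DESeq2, and SUM1 was called against hst34 without hst34 1 and by edgeR with TMM. Of the 12 activators, RIM13, a protease, rose by 0.53 ± 0.18 in hst34rrp6 against WT (adjusted p = 0.0218) and passed against hst34 (adjusted p = 0.0366). The call against WT was lost without any 1 library of WT, rrp6 or hst34rrp6, and that against hst34 without any 1 library other than hst34 1. Also among the activators, RIM4, which binds RNA of the program, rose by 0.52 ± 0.13 in hst34 against WT (adjusted p = 0.0037) and by 0.54 ± 0.13 in hst34rrp6 against WT (adjusted p = 0.000342); the first call was lost without WT 1 or WT 2. Its signal was 19.2 and 24.1 in the WT pair, 63.8 and 49.5 in the hst34 pair, 28.4 and 26.3 in the rrp6 pair and 52.0 and 64.6 in the hst34rrp6 pair, higher in all 4 libraries without HST4 than in the 4 with it.

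**Figure D5:**
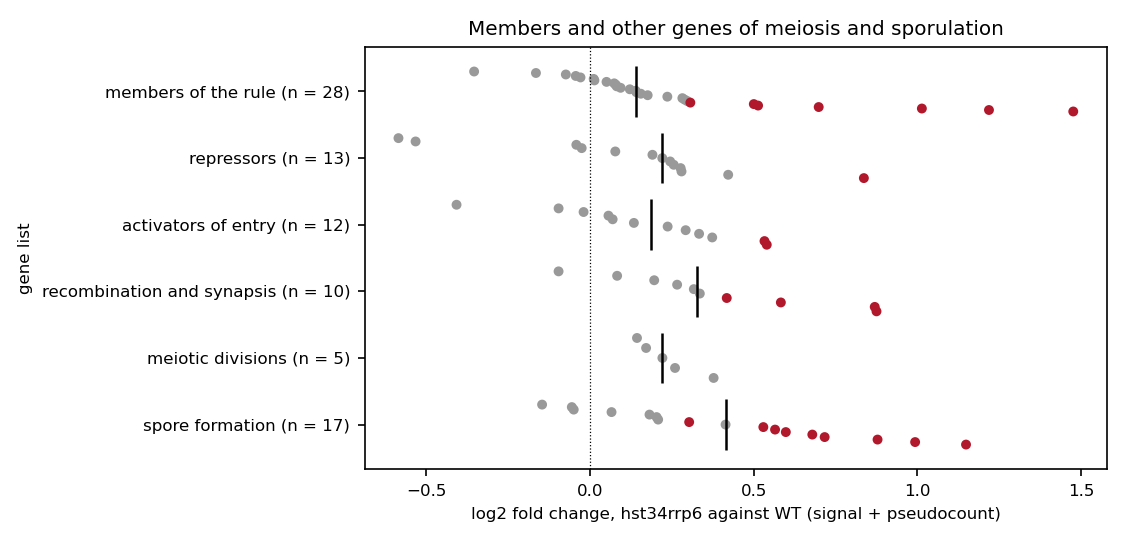
Log2 fold change in hst34rrp6 against WT, on log2(signal + 58.8), of each gene of 6 lists; each point is a gene, red points passed the test as higher, grey did not pass, and the vertical bar is the list's median. The 28 genes chosen by name have a median of 0.14 with SPS1 highest. Spore formation, the largest other list with 17 of the 57 genes, holds 9 of the 16 other genes that rose. Of all genes 10.2% rose.

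RNA-DNA hybrids over the same genes were measured by DRIP-seq, which enriches hybrids with an antibody, in WT and hst34, each also after RNase H treatment. The signal per interval, scaled per library and not per length, had a median over the 28 genes of 123 and 95.2 in WT and 102 and 83.2 in hst34, against 149, 124, 132 and 127 over all genes. The levels of WT 1 and WT 2 were far apart for several genes, as for MND2 at 139.1 and 10.3, and the depth of WT 2 was 83303106 reads against 935412 to 2951246 in the other 7. None of the 28 genes and 0% of all genes differed between hst34 and WT by limma, edgeR or DESeq2. At an unadjusted p under 0.05 limma gave 1 of 28 and 140 of 5298. The 1 was IME1, at −0.69 ± 0.27 (unadjusted p = 0.0338, adjusted p = 0.855). The mean signal was higher, not lower, with RNase H for 19 of 28 genes in WT and 20 of 28 in hst34, as for 67.7% and 73% of all genes.

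Break-seq, which captures DNA ends, gave 239 deposited peaks for hst34 against WT. The interval of SPO71, a gene of prospore membrane growth, overlapped 1 of them, as did 542 genes or 10.2% in all. The peak (chromosome IV, 661751 to 666500) had a signal of 669 and 684 in hst34 and 385 and 346 in WT. The peaks were called on this contrast, so the difference is a description. SPO71 RNA was 84.9 and 90.4 in WT and 91.7 and 57.6 in hst34, with no call in any comparison.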

How the data were processed

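RNA-seq, DRIP-seq and Break-seq tables were used. Per the labels, total RNA was depleted of rRNA and S. pombe cells were added at 1:6. The deposited RNA signal was normalised by the authors to S. pombe and to gene length (stated in the title of the table). The submitters' processing notes name TopHat2, Bowtie2, SAMtools and HTSeq 0.9.1, with sacCer3 as the build. Which step used which tool, and the strand and filter settings, are not stated in the labels. The deposited DRIP signal is reads times 1 constant per library, and the scaling of the deposited Break-seq signal is not stated. Whole reads were recovered for 100% of RNA and DRIP values within 0.01, and served edgeR and DESeq2 as alternatives; they cover counting error only.

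Symbols came from RefSeq by systematic name: 5286 of 5297 matched. Length is that of the deposited interval. limma 3.58.1 (R 4.3.3) was run with a trend on log2(signal + pseudocount), 58.8 for RNA and 12.5 for DRIP, the 5th percentile of positive values, fitting all 8 RNA libraries (and all 8 DRIP libraries) together, with p-values adjusted after Benjamini-Hochberg at 0.05 over all genes above 0 in at least 2 libraries. The prior degrees of freedom were infinite for RNA. The scripts were tested on simulated data. Alternatives used edgeR 4.0.16, DESeq2 1.42.0, other pseudocounts and filters, centring, a replicate block and leaving out each library. Genes were named by rule: members called in any RNA comparison and the regulators IME1, IME2, IME4 and NDT80; called genes of the other lists are given as examples, chosen after their values were seen. The members and lists were chosen with earlier results of these data known. Promoter motifs were not searched.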

Additional observations from a re-analysis of the deposited data

Results flagged for a closer look

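The change from WT to hst34 and the change from rrp6 to hst34rrp6 differed for SPO24 and SSP1, by limma's interaction term. For SPO24 the interaction was 1.24 ± 0.30 on the log2 scale (adjusted p = 0.005), with 0.24 in hst34 against WT and 1.48 in hst34rrp6 against rrp6. Its rrp6 libraries, at 2368 and 2726, were the lowest of the 8. The SPO24 interaction was lost in 4 of 8 fits that left out 1 library (1.08 to 1.34). For SSP1 the interaction was 0.72 ± 0.20 (adjusted p = 0.0295), with −0.55 in hst34 against WT and 0.17 in hst34rrp6 against rrp6. It was lost in 6 of 8 fits that left out 1 library (0.38 to 0.83), with each library centred, and by edgeR and DESeq2. WT 2, at 118.7, stood above the other 7 SSP1 values, which ran from 29.2 to 71.0. SSP1 is measured over 31.2% of its open reading frame.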

How the results depend on the processing

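Of 30 calls of single genes, 13 kept their side of the threshold and their direction in every setting that gave them a value: SPS1, SPO23 and SSP2 in rrp6 against WT and in hst34rrp6 against WT and against hst34, MND2 in hst34rrp6 against WT and against hst34, and SPO24 in rrp6 against WT and in hst34rrp6 against rrp6. Over 573 refits 442 kept the call, 131 lost it and 0 reversed it; centring kept 23 of 30, edgeR on the deposited scale 23, edgeR with TMM 27 and DESeq2 25. The counts of members called moved more, and the cause was not tested except for the filter that drops the lowest 25% of genes, which removes most members. In hst34 against WT 3 became 1 with a pseudocount of 1, 0 without the lowest 25% of genes, 0 with the compared groups alone, 1 with a replicate block, 0 without a trend, 0 by edgeR on the deposited scale and 6 with TMM, and ran from 1 to 3 over leave-one-out fits. In rrp6 against WT 6 became 1 without the lowest 25%, 10 with the groups alone and 10 with TMM (leave-one-out 5 to 10). In hst34rrp6 against WT 7 became 0 without the lowest 25% and 4 without a trend (4 to 9). In hst34rrp6 against rrp6 2 became 1 with 4 times the pseudocount, without the lowest 25%, with centring, with centring and the block, without a trend and without members under 10 reads (a choice made after seeing the data), and 5 with the groups alone (1 to 5). In hst34rrp6 against hst34 10 became 0 without the lowest 25%, 5 with the groups alone and 6 without a trend (6 to 13). The interaction went from 2 to 1 with a pseudocount of 1, without the lowest 25%, with centring, with the block, with both, without a trend, and by edgeR on either scale or DESeq2 (0 to 3); the 0 came without WT 2, rrp6 1, rrp6 2 or hst34rrp6 2. Labels do not say that replicate numbers mark a shared day, and deviations of same-numbered libraries correlated between −0.197 and 0.113 over strain pairs, so the replicate block pairs libraries by number only; with it the 6 RNA counts were 1, 6, 6, 2, 7 and 1. DRIP gave 0 in every setting. Over all genes, centring called 398 in place of 106 in hst34 against WT, 1763 in place of 591 in rrp6 against WT, 2051 in place of 843 in hst34rrp6 against WT, 2068 in place of 895 against hst34 and 99 in place of 63 for the interaction. Reads limit the low genes: 4 of 28 had under 10 in some library.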
